A study of Mus musculus with 12 samples.

Results

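The MiT/TFE and USF factors, MITF, TFEB, TFE3, TFEC, USF1 and USF2, are basic helix-loop-helix leucine zipper proteins that bind the E-box CACGTG, the sequence that MYC and MAX also bind. They were taken here with FLCN and FNIP1, the folliculin complex that controls where TFEB and TFE3 are held in the cell. The 8 genes were chosen by name from 21887 protein-coding genes. Every MYC or MAX peak that overlapped a gene, or the 10 kb on either side of it, by at least 1 bp was assigned to that gene.

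The study mapped MYC and MAX by ChIP-seq. Its cells were RAW264.7, a line of mouse origin that the labels call monocyte-derived, with bone marrow as the source. Cells were untreated, or treated for 4 h with RANKL (50 ng/ml), the cytokine that starts osteoclast differentiation, with I-BET (500 nM), an inhibitor of the BET bromodomain proteins, or with RANKL and I-BET together. There was 1 MYC, 1 MAX and 1 input library for each treatment, and a peak list for the MYC and MAX libraries. With 1 library in each group no difference between treatments could be set against replicate error, so every comparison is a description of these libraries and carries no p-value.

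MITF and TFE3 act in the osteoclast lineage on genes such as those for tartrate-resistant acid phosphatase and cathepsin K, while TFEB is best known for driving lysosome and autophagy genes. When nutrients are plentiful, mTORC1 phosphorylates TFEB and TFE3 and keeps them in the cytoplasm, and FLCN with FNIP1 enables this by acting on the Rag GTPases at the lysosome. USF1 and USF2 are present in most cell types, and MAX is the shared partner of MYC and of the MXD and MNT repressors, so a MAX peak does not name its partner.

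The sequence before the annotated starts shows where letters that MAX can bind lie beside its peaks. For 7 of the 8 genes, 13 RefSeq starts with their upstream 250 bases were matched (assembly GRCm38.p6, the same coordinates as mm10). Usf2 was not matched. Hexamer motifs were searched on both strands. The canonical E-box was CACGTG, which reads the same on either strand and was counted once per site. The form that MiT/TFE factors also bind was CACATG, which on the opposite strand reads as CATGTG there. A related noncanonical form of MYC and MAX was CACGCG, which on the opposite strand reads as CGCGTG instead. Hits of different motifs may overlap in part. Fnip1 is shown because it was the only gene of the 7 with a motif in these 250 bases: counted back from the start, CGCGTG begins at position -156 and CACGTG at -75, both in capitals. Mitf and Flcn are shown because their starts also lay under MAX peaks, Tfeb and Usf1 because theirs were under a peak with I-BET alone, and Tfec because it had no peak. Each sequence reads 5′ to 3′ in the direction of transcription, and capitals mark a motif.
Fnip1, start 1, chr11:54437929-54438178, plus strand: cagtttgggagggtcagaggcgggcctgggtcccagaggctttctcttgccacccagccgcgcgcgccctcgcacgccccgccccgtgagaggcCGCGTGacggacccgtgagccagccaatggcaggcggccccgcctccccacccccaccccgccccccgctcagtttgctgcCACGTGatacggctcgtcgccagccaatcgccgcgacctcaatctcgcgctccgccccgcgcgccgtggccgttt
Mitf, start 1, chr6:97806808-97807057, plus strand: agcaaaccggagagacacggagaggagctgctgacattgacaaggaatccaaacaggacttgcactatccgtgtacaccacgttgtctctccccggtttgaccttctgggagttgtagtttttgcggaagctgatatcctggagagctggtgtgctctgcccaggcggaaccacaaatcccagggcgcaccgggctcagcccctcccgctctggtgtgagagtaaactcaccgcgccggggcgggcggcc
Flcn, start 1, chr11:59810040-59810289, minus strand: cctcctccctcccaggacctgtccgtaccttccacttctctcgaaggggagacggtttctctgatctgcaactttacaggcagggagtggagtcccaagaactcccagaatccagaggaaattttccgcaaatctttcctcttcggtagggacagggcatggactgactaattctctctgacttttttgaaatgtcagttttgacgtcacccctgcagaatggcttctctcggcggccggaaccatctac
Tfeb, start 1, chr17:47736787-47737036, plus strand: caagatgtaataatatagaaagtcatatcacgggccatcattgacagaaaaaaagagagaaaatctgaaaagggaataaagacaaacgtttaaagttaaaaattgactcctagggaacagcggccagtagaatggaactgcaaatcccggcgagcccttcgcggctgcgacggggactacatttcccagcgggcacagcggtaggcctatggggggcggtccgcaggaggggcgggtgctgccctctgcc
Usf1, start 1, chr1:171411063-171411312, plus strand: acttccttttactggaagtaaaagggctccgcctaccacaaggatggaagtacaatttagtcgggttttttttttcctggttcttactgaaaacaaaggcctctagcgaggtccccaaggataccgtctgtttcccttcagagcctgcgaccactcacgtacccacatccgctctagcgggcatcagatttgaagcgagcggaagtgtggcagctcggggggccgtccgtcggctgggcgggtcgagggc
Tfec, start 1, chr6:16898442-16898691, minus strand: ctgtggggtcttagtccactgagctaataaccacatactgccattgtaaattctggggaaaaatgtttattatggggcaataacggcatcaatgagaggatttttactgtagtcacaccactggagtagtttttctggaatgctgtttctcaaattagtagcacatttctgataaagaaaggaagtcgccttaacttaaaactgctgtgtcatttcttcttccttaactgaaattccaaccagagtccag

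All 4 MAX peaks at the Fnip1 start spanned both of its motifs. The upstream bases of the other 12 starts held none of the 3 motifs, and in the 300-base windows that add 50 bases after the start, Flcn gained 1 CACGCG site. Of 32851 upstream windows genome-wide, 6.02% held CACGTG, 12.3% held CACATG and 7.62% held CACGCG. Windows under an untreated MAX peak held CACGTG in 15.1% of cases, CACATG in 7.11% and CACGCG in 22.3%, against 4.14%, 15.3% and 2.99% of windows under no MAX peak. Base composition differed beside these shares, with a median of 63.2% G and C under an untreated MAX peak and 48.0% under none, and its part in them was not tested. G and C made up 73.6% of the Fnip1 window and 39.2% of the Tfec window. A missing motif says only that these letters are not in that window.

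No MYC peak was listed at any of the 8 genes. MYC peaks were few: 312 in the untreated list, 299 with RANKL, 136 with I-BET and 11 with both. Of all protein-coding genes, 2.05% had a MYC peak within 10 kb in the untreated list, 2.02% with RANKL, 0.434% with I-BET and 0.064% with both, so 0 of 8 is close to what those shares give. The MYC peak nearest to any of the 8 lay 84.1 kb from Usf1, in the RANKL list at rank 256. At 236 kb from Flcn lay a peak that ranked 4 in the untreated and RANKL lists and 1 in the list with both. The nearest MYC peak was 380 kb from Tfeb, 951 kb from Fnip1 and at least 3280 kb from the other 4 genes.

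MAX was listed at 6 of the 8 genes untreated, 5 after RANKL, 7 after I-BET and 5 after both. By the same rule 37.4%, 42.3%, 65.0% and 30.0% of protein-coding genes had a MAX peak. Mitf, Tfeb, Usf2, Flcn and Fnip1 had a MAX peak in all 4 lists, a pattern seen at 26.7% of protein-coding genes. Tfe3 was listed in untreated cells and with I-BET, which 2.41% of genes showed, Usf1 with I-BET alone (19.1%), and Tfec in no list (34.8%). With 8 genes these shares describe and do not test the set. These shares differ with window length, without a steady trend. Among the 14381 genes with windows under 50 kb, the class of Usf1, Usf2, Flcn and Tfe3, 24.7% had MAX in all 4 lists, against 32.5% of the 5759 genes with windows of 50 to 150 kb, the class of Tfeb, Fnip1 and Tfec, and 23.9% of the 1747 genes with windows over 150 kb, the class of Mitf.

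**Figure D1:**
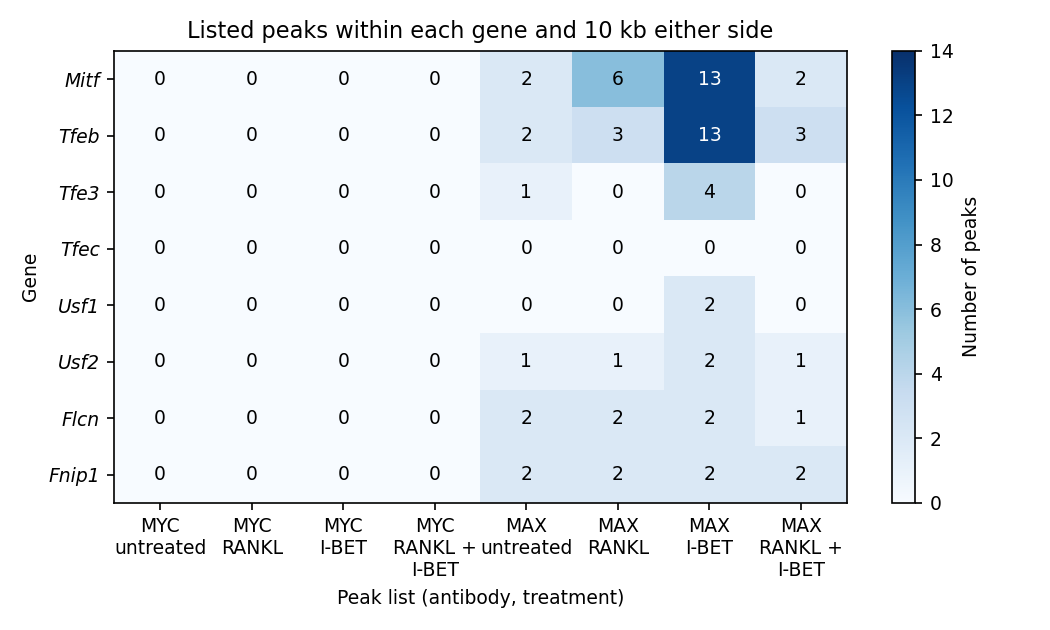
Number of listed peaks (colour and digit) within each gene and 10 kb either side, for the 8 genes (vertical axis) in the 4 MYC and 4 MAX lists (horizontal axis). All MYC cells are 0, and the MAX I-BET column holds the most peaks, 13 each at Mitf and Tfeb.

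The 8 windows together held 10 MAX peaks untreated, 14 after RANKL, 38 after I-BET and 9 after both. The whole lists moved in the same order, with 8839, 10889, 36785 and 6307 MAX peaks. As a share of its list the 8 genes held 0.113% untreated (95% Clopper-Pearson interval 0.0543 to 0.208), 0.129% with RANKL (0.0703 to 0.216), 0.103% with I-BET (0.0731 to 0.142) and 0.143% with both (0.0653 to 0.271). These intervals overlap and cover counting error only, so a gain or loss at these genes beyond that of the lists was not detectable. When each MAX list was held to its 6307 highest-scoring peaks, 6, 5, 3 and 5 of the 8 genes kept a peak in the untreated, RANKL, I-BET and combined lists, beside 30.0%, 29.8%, 33.6% and 30.0% of all genes. With I-BET those 3 genes were Mitf, Usf2 and Fnip1. Per megabase the 8 windows held 15.9, 22.3, 60.5 and 14.3 MAX peaks, and the windows of all protein-coding genes 6.05, 7.42, 23.9 and 4.39.

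Lying wholly inside a gene were 5 of 10 untreated MAX peaks, 10 of 14 with RANKL, 24 of 38 with I-BET and 6 of 9 with both. Of the 38 I-BET peaks, 8 crossed a gene end and 6 lay outside, and 7 of the 38 covered an annotated start. Only 3 of the 10 untreated peaks covered a start, at Mitf, Flcn and Fnip1. Joined across treatments, the peaks formed 40 regions, of which 26 were listed with I-BET alone and 7 in all 4 treatments. Shares over all MAX peaks or regions are not given beside these placement and region counts, and the I-BET list was the longest. The counts therefore describe these windows and show no trait particular to them. Counting only peaks within 1 kb of a gene end left 3, 3, 7 and 3 of the 8 genes in untreated, RANKL, I-BET and combined lists, where 23.7%, 27.8%, 50.3% and 18.6% of all genes had such a peak.

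Mitf encodes the founding member of the family and is transcribed from several alternative promoters, one of them used in melanocytes. It spans 214 kb on chromosome 6 (mm10, 97807002 to 98021360, plus strand) with 3 annotated starts. Its MAX peaks numbered 2 untreated, 6 after RANKL, 13 after I-BET and 2 after both. The peak at the first start ranked 3708 of 8839 untreated, 3187 of 10889 with RANKL, 2133 of 36785 with I-BET and 2334 of 6307 with both, where rank 1 is the highest score. Ranks of lists of different lengths show no change, but each can be read as a position in its own list: 42.0%, 29.3%, 5.8% and 37.0% from the top. The peak was 380, 415, 1129 and 270 bp wide in the same order.

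Another Mitf region, 50.8 kb inside the gene, was also present in all 4 lists, at 63.3%, 43.2%, 20.5% and 57.1% from the top and 431, 386, 602 and 412 bp wide. The other starts, at 97929817 and 97991783, lay under no MAX peak in any list. With RANKL, 4 further sites inside Mitf were listed, 3 of them in the lower part of the list: the peaks at 11.3, 13.7 and 49.6 kb ranked 10609, 8467 and 8978, and I-BET peaks overlapped all 3. The fourth, at 19.8 kb (chr6:97826731-97827057, 327 bp), ranked 4112 and was in no other MAX list. Of the 10889 RANKL peaks, 238 (2.19%) were in no other MAX list, and among the 4112 ranked at or above that Mitf site the number was 12 (0.292%). The Mitf site was the lowest-ranked of those 4112 and 1 of the 12, so the share at its own rank can be higher. Held to 6307 peaks per list, Mitf kept 2, 3, 1 and 2 peaks, so the 13 with I-BET came mostly from lower-scoring peaks of the longer list.

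**Figure D2:**
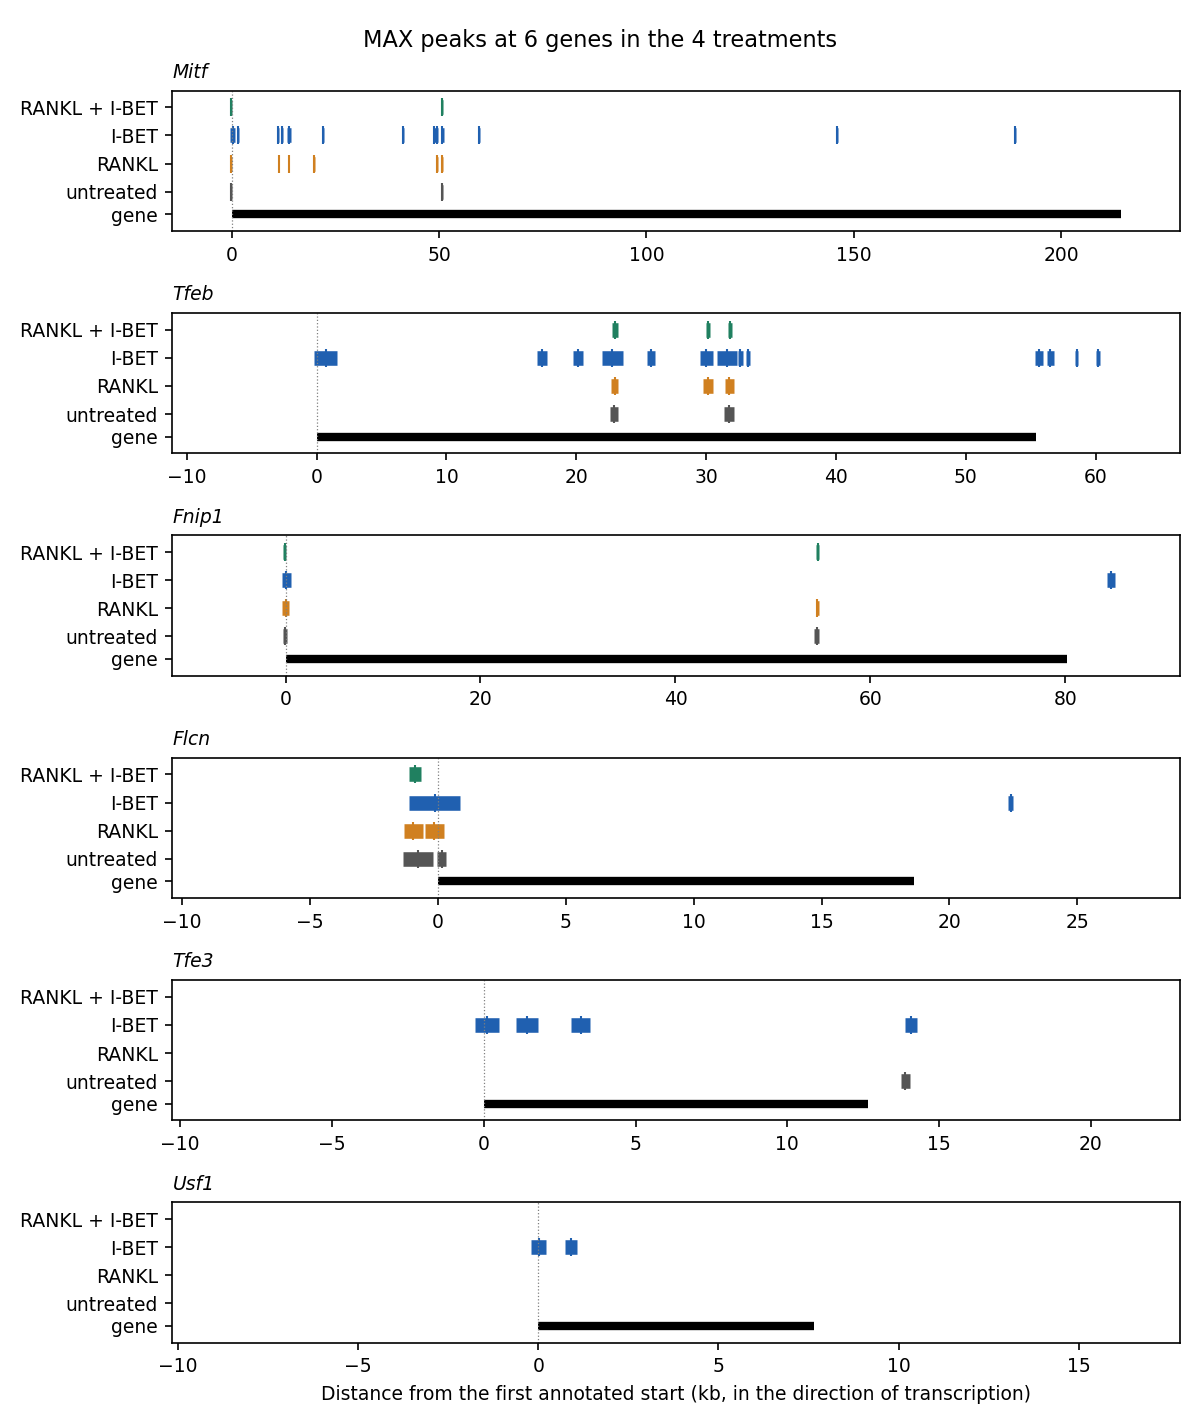
Listed MAX peaks (coloured blocks, drawn to scale, with a tick at each centre) by treatment along 6 of the genes, with distance from the first annotated start in kb in the direction of transcription on the horizontal axis and the gene as a black bar. Mitf and Tfeb have 13 I-BET peaks each, the inner Fnip1 peak has no I-BET block, and the peak beyond Tfe3 appears untreated and with I-BET only.

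Tfeb, the gene for the master regulator of lysosome formation, lies on chromosome 17 (47737037 to 47792416, plus strand). It had 2 MAX peaks untreated, 3 after RANKL, 13 after I-BET and 3 after both. Its sites listed in all 4 treatments were inside the gene and not at a start. The site 22.8 kb in ranked 5304, 6334, 9464 and 3045 in untreated, RANKL, I-BET and combined lists, with widths of 635, 566, 1580 and 469 bp. The site 31.6 kb in ranked 3319, 4282, 10364 and 3905, with widths of 759, 702, 1547 and 339 bp. Between them, a site 30.0 kb in was absent untreated and ranked 8533 with RANKL, 18556 with I-BET and 5029 with both, in the lower part of the RANKL and combined lists. Starts 1 and 2 were under MAX with I-BET alone, in a 1755 bp peak (chr17:47736846-47738600) that ranked 6378, and start 3 was under no MAX peak. Held to 6307 peaks per list Tfeb kept 2, 1, 0 and 3 peaks, and the I-BET start peak ranked just below that number.

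Tfe3, which encodes the relative of TFEB that shares its control by nutrients, had a single untreated MAX peak (chrX:7776403-7776689, 287 bp). It lay 1201 bp past the end of the gene, inside the annotated noncoding gene Gm39487, so the 10 kb rule and not a start assigned it to Tfe3. It ranked 2349 of 8839, higher by score than the best untreated Mitf, Tfeb, Usf2 or Fnip1 peak. By width the order turned, with Tfe3 at rank 8390, the lowest of the 6 listed genes, and Mitf at 4719, Fnip1 at 3103, Usf2 at 1769 and Tfeb at 858. No MAX peak overlapped it with RANKL or with both, and the nearest were 47.8 kb away with RANKL and 353 kb away with both. With I-BET a 409 bp peak overlapped it at rank 25761 of 36785.

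Absence after RANKL was uncommon among the untreated MAX peaks ranked at or above the Tfe3 peak. Of these 2349 peaks, 32 (1.36%, interval 0.934 to 1.92) were not listed again with RANKL, against 18.0% of all 8839 untreated peaks. The Tfe3 peak was the lowest-ranked of that set, so the share at its own rank can be higher. Among the 3350 highest-ranked untreated peaks it was 119 (3.55%). Listed with I-BET but in neither RANKL list were 24 of the 2349 (1.02%), against 1199 of all 8839 untreated peaks (13.6%). The 3 other I-BET peaks of Tfe3 lay over its 2 starts and 3.19 kb inside, at ranks 12826, 21639 and 19227. Those start peaks were in no other list, and none was among the 6307 highest-scoring I-BET peaks.

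Tfec, whose product is the family member most restricted to myeloid cells, had no MAX or MYC peak within 10 kb in any list. The gene is on chromosome 6 (16830927 to 16898464, minus strand). Its nearest MAX peaks were 167 kb away untreated, 166 kb with RANKL, 157 kb with I-BET and 738 kb with both. It was the only gene of the 8 with no MAX peak in the long I-BET list, in which 65.0% of genes had a peak. In its size class of 50 to 150 kb, 22.3% of genes had no MAX peak in any list.

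Usf1 and Usf2, which encode the partners of the USF dimer, differed in their lists. Usf1 (chromosome 1, 171411307 to 171418954) had MAX peaks with I-BET alone, 417 bp wide over its first start at rank 22829 and 339 bp wide 0.899 kb downstream at rank 8093. In the other lists the nearest MAX peak lay 22.1 kb from the gene, so a 25 kb flank brought Usf1 into all 4 lists. Usf2 (chromosome 7, 30945248 to 30956951) had a MAX peak inside the gene in every list, centred at -3.42 kb from its higher-coordinate end. That peak ranked 3309, 5063, 2781 and 3231 in untreated, RANKL, I-BET and combined lists, and was 623, 583, 941 and 582 bp wide. I-BET added a 2845 bp peak over the higher-coordinate end at rank 11242, which also touched the neighbouring gene Lsr.

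Flcn encodes folliculin, and its MAX peaks sat at and just upstream of its start on chromosome 11 (59791408 to 59810039, minus strand). Untreated cells had a 350 bp peak over the start at rank 8770 of 8839 and a 1163 bp peak just upstream at rank 2210. RANKL cells had a 742 bp peak over the start at rank 9823 and a 771 bp peak upstream at rank 3222. With I-BET a single 1999 bp peak at rank 7377 spanned both sites. With both agents only the upstream site remained listed, 479 bp wide at rank 1688 and 654 bp from the gene. The stronger site was upstream in each list that separated the sites, and there it overlapped the noncoding gene Gm16062. A further I-BET peak of 218 bp at rank 26098 lay on the neighbouring gene Pld6.

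Fnip1 encodes the partner through which FLCN binds the Rag GTPases, and its start was under MAX in all 4 lists (chromosome 11, 54438107 to 54518241, plus strand). The start peak, over the 2 motifs printed above, ranked 3204, 3400, 2373 and 3438 and was 363, 690, 934 and 297 bp wide in untreated, RANKL, I-BET and combined lists. A site 54.5 kb inside the gene (chr11:54492412-54492923 untreated) followed a different pattern. It ranked 3350 untreated (512 bp), 7777 with RANKL (268 bp) and 2003 with both (294 bp), and had no I-BET peak. The closest I-BET peak was 29.5 kb away, at the neighbouring gene Rapgef6.

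The inner Fnip1 site was the only 1 of the 10 untreated peaks missing from the I-BET list, the longest of the 4. Over all untreated MAX peaks, 224 of 8839 (2.53%) were not listed again with I-BET, and 22 of the 3350 (0.657%, interval 0.412 to 0.993) ranked at or above the Fnip1 site. The Fnip1 site was the lowest-ranked of that set and 1 of the 22, so the share at its own rank can be higher. Among the 2349 highest-ranked untreated peaks 10 (0.426%) were not listed again with I-BET. Listed again with RANKL and with both but not with I-BET were 27 of 8839 (0.305%).

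Across the genes, the RANKL list held 9 of the 10 untreated peaks again, I-BET 9 and the combined list 8. Over all untreated MAX peaks the shares were 82.0%, 97.5% and 58.9%. All 3 other lists held 7 of the 10 (70.0%, interval 34.8 to 93.3), against 55.6% of all peaks. The interval spans that share.

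Peak width set the I-BET list apart at the 7 regions present in all 4 treatments, 2 each at Mitf and Tfeb and 1 each at Usf2, Flcn and Fnip1. Where a region held several peaks of a list the highest-scoring was taken, which here was also the widest. In the comparison with all untreated peaks the widest overlapping peak was taken. The I-BET peak was wider than the untreated peak at 7 of 7 regions, with a median ratio of 2.04 and a range from 1.4 to 2.97. With RANKL the median ratio was 0.925 (0.663 to 1.9) and 2 of 7 were wider. With both it was 0.739 (0.412 to 0.956) and 0 of 7 were wider. Over the 4912 untreated MAX peaks that recurred in the other 3 lists, the median ratios were 1.13, 1.89 and 0.893 with RANKL, I-BET and both, and 69.5%, 94.2% and 32.7% were wider, so widening with I-BET was general to that list. How width depends on depth and calling was not tested.

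**Figure D3:**
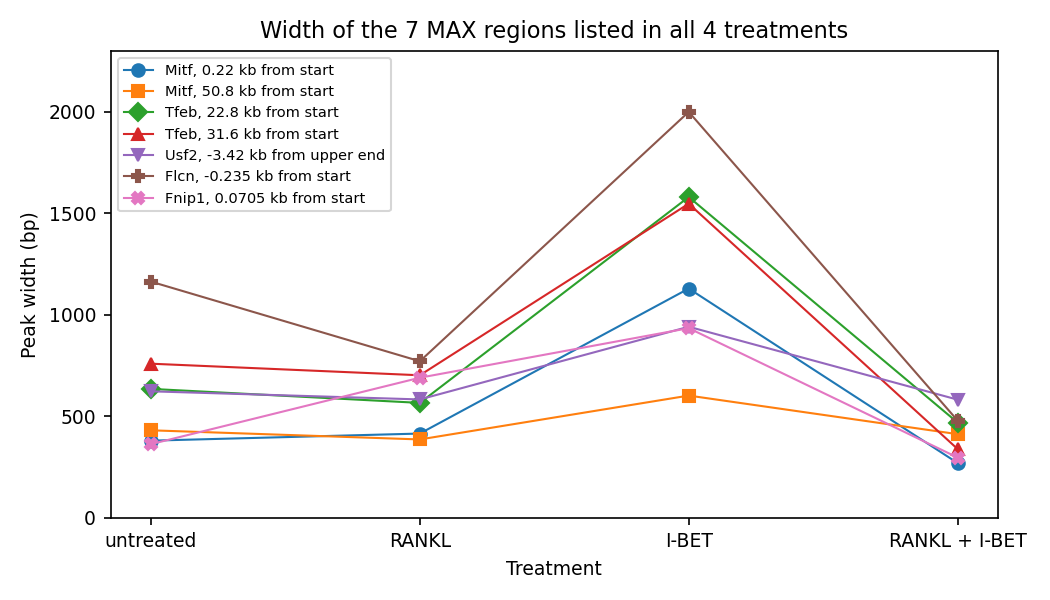
Width in bp (vertical axis) of the highest-scoring MAX peak in each of the 7 regions listed in all 4 treatments (horizontal axis), 1 line per region, named by gene and distance from its start or upper end. Every region is widest with I-BET, from 602 to 1999 bp, and narrower with both agents than untreated.

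The best-scoring peaks of these genes stood, at the median, near those of other genes in each list. The median position of the best peak was 36.8% from the top in the untreated list, 31.2% with RANKL, 17.3% with I-BET and 37.0% with both. Over all protein-coding genes with a MAX peak the medians were 39.1%, 37.1%, 16.4% and 41.3%. By score the best-placed was Flcn in untreated cells (25%) and with both (26.8%), and Mitf with RANKL (29.3%) and I-BET (5.8%). The values of Mitf and Flcn with RANKL, 29.3% and 29.6%, hardly differed. Ranking by width changed which gene was best-placed in 3 of the 4 lists. Flcn stayed best-placed untreated (1.15%) and was so with RANKL (13.7%), where Mitf was lowest (46.1%). Usf2 was best-placed with I-BET (0.261%, Mitf 11.6%) and with both (19.7%, Flcn 34.4%). With I-BET that Usf2 peak was the 2845 bp peak that also touched Lsr, at rank 11242 by score.

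**Figure D4:**
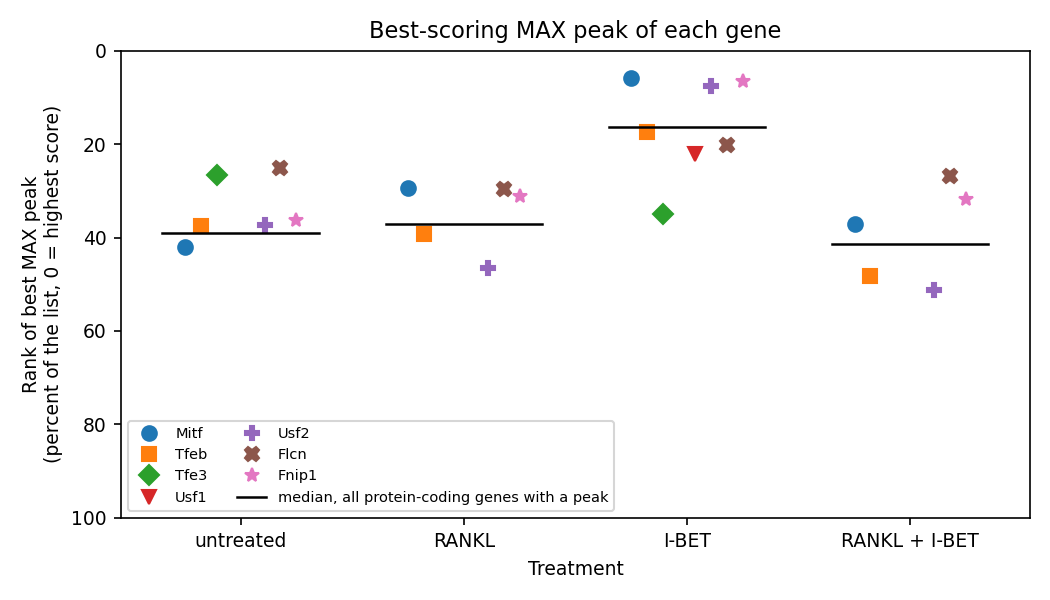
Position of the highest-scoring MAX peak of each gene in its list (vertical axis, percent from the top, 0 at the top) by treatment (horizontal axis), with a black line at the median of all protein-coding genes that have a peak. The points lie on both sides of the line in all 4 lists.

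Genes with the most similar positions over the 4 MAX lists were sought among the 5838 protein-coding genes with a MAX peak in all 4, by the sum of the absolute differences in percentage points. Exosc1 (4.33 points) and Lkaaear1 (4.53) were nearest to Mitf, and Cebpb (9.45), which encodes a C/EBP factor of the myeloid lineage, and then Cdkn2aip to Tfeb. For Usf2 they were Rcbtb2 (7.55) and Rad51c (7.86), and for Flcn Pgs1 (8.06) and Zfp607b (8.54). Nutm1 and Nop10 were nearest to Fnip1, with the same values in all 4 lists (5.14 each). These are likenesses over 4 libraries.

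Genes that the MiT/TFE factors act on were listed in larger shares than the 37.4%, 42.3%, 65.0% and 30.0% of all protein-coding genes, without matching for gene length. Of 30 MITF and TFEB target genes of the lysosome and osteoclast, 20 had a MAX peak untreated, 23 with RANKL, 30 with I-BET and 17 with both, or 66.7%, 76.7%, 100% and 56.7%. Among the highest in the untreated list were Lamp1 (rank 327), for a lysosome membrane protein, Tpp1 (810), for a lysosomal peptidase, Hexa (1074), for a lysosomal hydrolase, and the autophagy genes Wipi1 (1212) and Map1lc3b (1410). These 5, from the top of 30 targets, ranked above the best peak of any of the 8 factor and regulator genes, whose highest was Flcn at 2210. Most other targets ranked below 2210 or had no untreated MAX peak. Wipi1 was not listed with both agents.

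Among 33 genes of the FLCN, Rag GTPase and mTORC1 pathway, 27, 27, 33 and 17 had a MAX peak in untreated, RANKL, I-BET and combined lists, or 81.8%, 81.8%, 100% and 51.5%. Fnip2, the paralogue of Fnip1, stood highest of them in the untreated list, and ranked 129, 272, 640 and 155, above Fnip1 in each list. Rptor, for the raptor subunit of mTORC1, ranked 895, 583, 417 and 697. Gabarap, Mtor, Lamtor1 and Lamtor2 ranked 1080, 1147, 1156 and 1256 in the untreated list. MYC was listed at Rptor untreated (rank 102) and with RANKL (237), at Lamtor2 untreated (227) and at Tsc1 with RANKL (112).

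Of 26 other E-box factors, 16, 19, 26 and 15 had a MAX peak in the same order, or 61.5%, 73.1%, 100% and 57.7%. The highest untreated were Mlxip (rank 367), for a partner of MLX, Max itself (712), Mnt (811), Tfap4 (1073), Bhlhe41 (1110) and the clock gene Arntl (1114). Tfap4 had the only MYC peak among them, with RANKL (rank 149). These lists overlap in their evidence at least at Ctsk of the target list and Arnt of the factor list. Ctsk and Arnt shared their best peak in the untreated list (rank 2541) and in the combined list (rank 6158).

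Markers were read to check the labelled cell type, although a MAX peak is not a measure of expression. Of 10 macrophage markers 6, 7, 9 and 5 had a MAX peak, or 60.0%, 70.0%, 90.0% and 50.0%. Of all protein-coding genes 37.4%, 42.3%, 65.0% and 30.0% had one. Spi1, Cebpa, Cd68 and Csf1r were among the markers with a peak in all 4 lists, and Adgre1 had none. Of 14 markers of melanocytes, hepatocytes, neurons, osteoblasts and lymphocytes, 0, 1, 7 and 1 had a MAX peak, the 1 with RANKL and with both being Pmel. MYC was listed at Spi1 (rank 235), Cebpa (252) and Cd68 (45) with RANKL, and at none of the 14.

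**Figure D5:**
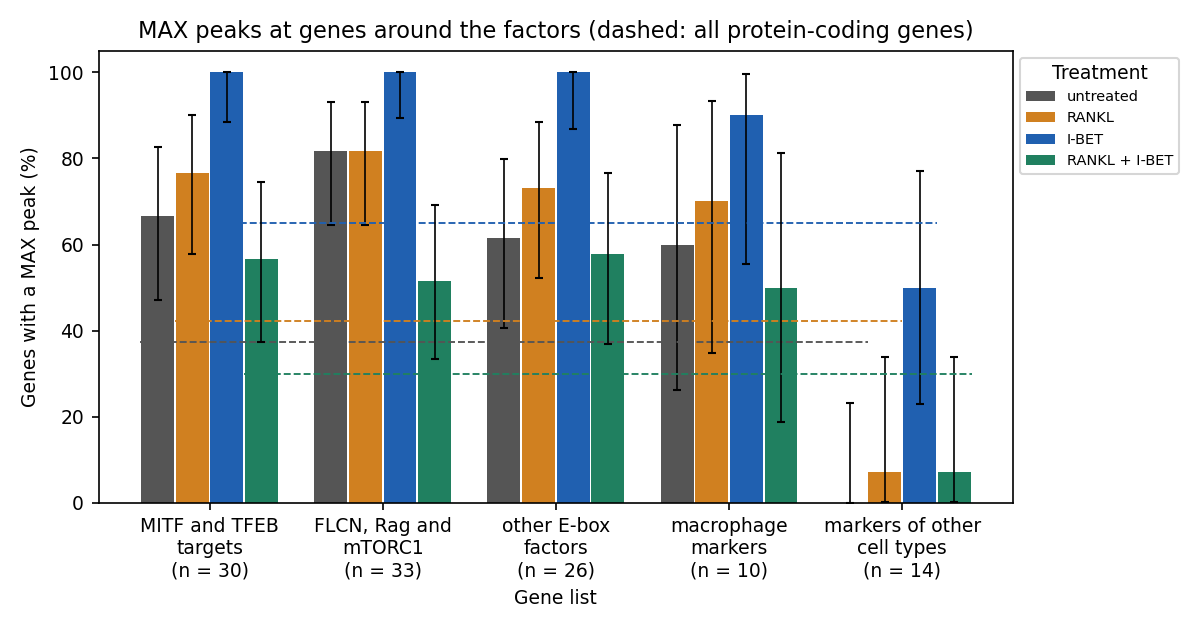
Percent of genes with a MAX peak within 10 kb (bars, vertical axis from 0) for 5 gene lists (horizontal axis) and 4 treatments, with 95% Clopper-Pearson intervals and dashed lines at the share of all protein-coding genes. The target, FLCN, E-box factor and macrophage marker lists stand above the dashed line of each treatment, and the markers of other cell types below it.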

How the data were processed

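ChIP-seq peak lists of MYC and MAX in RAW264.7 cells were used, 1 list for each antibody and treatment, with groups taken from the sample titles and treatment labels. FastQC, Bowtie2 2.3.4.1, MACS2 2.1.1.20160309 and the builds mm10 and GRCm38 are named per the submitters' processing notes. Not given in the sources used here are the calling thresholds, how input was used and how duplicates were handled; read depth is unknown. A deposited line holds chromosome, start, end, a name built from its joined peaks, and a score. The score is a value of the authors, and here it served to order or threshold peaks inside 1 list only. By their names, the deposited peaks join 3 call sets, whose nature is not given. The 4 input libraries have no list and were not analysed here.

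Genes, starts and upstream sequences came from RefSeq tables of GRCm38.p6, and 8 of 8 gene symbols matched. A peak counted where it overlapped the gene extent plus 10 kb on each side by at least 1 bp. The overlap code was tested on simulated data and against bedtools 2.31.1. Tables were made with pandas 2.3.3 and numpy 2.4.6 in Python 3.11.15, intervals with scipy 1.17.1 and figures with matplotlib 3.10.9. Shares carry 95% Clopper-Pearson intervals for counting error only. No test between treatments was made.

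The 8 genes and the gene lists beside them were chosen with earlier results of these data known. All 8 were reported. From each pathway list at most 6 genes were named, those with the highest-ranked untreated MAX peak, plus every gene with a MYC peak (1 gene that this rule names is not reported here), and for likeness 2 genes per factor gene. The choice of Ctsk, Arnt, Adgre1, Csf1r and Pmel came after seeing their values. Alternatives changed the flank (0, 1 or 25 kb, or within 1 kb of gene ends), kept peaks at or above the median score or equal numbers of top peaks, required 50% of the peak inside the window, and ranked by width. Leaving out peaks on another protein-coding gene was chosen after seeing the data.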

Additional observations from a re-analysis of the deposited data

Results flagged for a closer look

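In the full lists, the number of MAX peaks moved in opposite directions with RANKL depending on I-BET. Over the 8 genes, RANKL against untreated gave 4 more MAX peaks, and RANKL with I-BET against I-BET alone gave a change of -29. At Mitf the changes were 4 and -11, and at Tfeb 1 and -10. The difference was not tested, since each group is 1 library. The whole MAX lists changed the same way, by 2050 peaks without I-BET and by -30478 with it. Held to 6307 peaks per list, the 8 genes held 9 peaks untreated, 7 with RANKL, 4 with I-BET and 9 with both. Both directions over the 8 genes were then reversed, with fewer peaks after RANKL without I-BET and more with it. In the same order Mitf held 2, 3, 1 and 2, and Tfeb 2, 1, 0 and 3. The directions in the full lists therefore depend on list length.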

How the results depend on the processing

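Under a flank of 0, 1 or 25 kb all counts of genes and peaks stayed within 1.5 times of those reported. The counts for the 8 genes also did so under 50% overlap and without peaks on other protein-coding genes. The target, pathway and factor genes were not recounted under these last settings. Tfe3 left the untreated list at a flank of 0 and 1 kb, and Flcn left the combined list at 0. Peaks within 1 kb of gene ends left 3 genes untreated, 3 with RANKL and 3 with both, and 1 target, pathway or E-box factor gene with MYC in each of the untreated and RANKL lists. Keeping peaks at or above the median score left 7 peaks of the 8 genes with RANKL, 19 with I-BET and 4 with both, and 44 and 32 target, pathway or factor genes with MAX in the RANKL and combined lists. Equal numbers of top peaks left 7 peaks with RANKL, 4 peaks and 3 genes with I-BET, and 54 target, pathway or factor genes with I-BET. For MYC the equal number was 11, the length of the shortest MYC list. It left 0 of the target, pathway or factor genes with MYC in the untreated and RANKL lists. Their MYC peaks ranked 102 or lower in those lists, so that cut fixed the 0 in advance. Ranked by width, the median position of the best peak with RANKL was 20.1% from the top, and, counting that median, 17 positions moved with this ranking and 10 did not. The cause of these moves was not tested. The gene-end, median-score and equal-number settings count fewer peaks, while ranking by width keeps all of them. No paired analysis was possible because each group is 1 library and no replicate numbers are given. Read depth, which limits what a peak list can show, is unknown.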
